A study of Mus musculus with 8 samples.

Results

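The genes described here carry TGF-beta signals or mark lymphocytes that have settled in a tissue. They are the ligands Tgfb1 and Tgfb2, the receptors Tgfbr1 and Tgfbr2, the pathway inhibitor Smad7, the integrin gene Itgav, and the residency genes Itgae, Itga1, Cd69 and Znf683. Members were matched by gene symbol, and all 10 were found among the 33696 genes of each expression matrix. The matrices list Znf683, which encodes the transcription factor Hobit, as Zfp683.

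Cells came from the brains of mice with EPZFTA-RELA ependymoma of the genotype NestinCreERT2;Fus1;RFPTdT, in which the Nestin promoter, active in neural stem and progenitor cells, drives an inducible Cre. All mice, controls included, carried these alleles and a tumor, so no tumor-free group was measured. Mice were randomized at 3 weeks of age to 1 intrathecal injection of mavrilimumab, an antibody to the GM-CSF receptor alpha chain, at 5 mg/kg or of a control antibody (vehicle IgG), were followed to a humane endpoint, and gave tissue at 6 to 8 weeks. The study describes its single-cell profiles of vehicle- and mavrilimumab-treated tumors as taken at recurrence. It also reports that regression after 1 dose lasted for about 6 weeks. How that timing fits an age of 6 to 8 weeks could not be settled here, nor whether age differed between the arms. Cells stained for CD45 and Ter119 were sorted and profiled with the 10x Genomics 5' gene expression assay, in 2 vehicle IgG libraries and 2 mavrilimumab libraries. How many mice went into a library, and whether libraries came from separate mice, is not stated in the labels. Each p-value of expression therefore rests on sums per library, and none measures the spread between mice. For its receptor profiles the study describes tumors as pooled within each group, without a number per library.

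The libraries held 24354457 to 148657643 unique molecular identifiers (UMIs, each 1 counted mRNA molecule), and 39632 cells passed the filters of at least 1000 UMIs, 200 to 6000 genes and at most 10% mitochondrial UMIs. Kept cells numbered 984 in vehicle IgG 1, 26746 in vehicle IgG 2, 6412 in mavrilimumab 1 and 5490 in mavrilimumab 2, with median UMIs per cell from 3296 in vehicle IgG 2 to 11759 in vehicle IgG 1. Pairs of libraries shared between 0 and 60 cell barcodes. In 3 T cell receptor libraries the name inside the deposited archive gave the other treatment than the label. The receptor library labeled mavrilimumab 1 shared 2491 of 2749 barcodes with the expression library mavrilimumab 2, and the receptor library labeled mavrilimumab 2 shared 4867 of 5659 with mavrilimumab 1. The receptor library labeled vehicle IgG 1 shared 182 of 193 with the expression library vehicle IgG 1. Through these barcodes the conflict in names reaches these expression libraries too, and which name is right could not be settled here. Directions of treatment below follow the labels of the expression libraries, and receptor sequences were joined by barcode. The fourth receptor library was not analysed here.

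Marker UMIs set 6 cell groups, which held 5613 CD8 T cells, 2367 CD4 T cells, 834 NK cells, 1869 microglia, 174 monocyte-gated cells and 16021 neural cells; 447 cells met the rules of more than 1 group and 12307 of none, and both were left out. Neural cells here were those without Ptprc (CD45) and with Nnat or Mdk, and were not divided into tumor and normal cells. A sort for CD45-positive cells, as the study describes its single-cell profiles, would remove this group, and 15596 of its 16021 cells came from vehicle IgG 2. A library entered a group's comparison only with at least 20 cells, which left 3 libraries for NK and monocyte-gated cells and 2 for neural cells, 20 sums in all. The 4 sums left out rested on 2 to 4 cells and held 0 to 19 UMIs of each gene, the most being Tgfbr1 in monocyte-gated cells of vehicle IgG 1. Wider marker lists were summed in each group. They include the gating genes, so a group's own list is high by its gate and does not check it. The 8 microglial markers summed to 23950 CPM (UMIs of a gene scaled to 1000000 UMIs of the sum) or more in microglia, and the 5 NK markers to 2181 CPM or more in NK cells. The monocyte gate was mixed: the 4 neutrophil markers summed to 51035 CPM there in mavrilimumab 2, 13709 in vehicle IgG 2 and 111 in mavrilimumab 1. Microglial markers also reached 3096 CPM in CD8 T cells and 2401 CPM in CD4 T cells of vehicle IgG 1. In neural cells they reached 2029 CPM in mavrilimumab 2, against 542 CPM in vehicle IgG 2. Neural markers reached 1671 to 2446 CPM in the 5 immune groups of vehicle IgG 2, and 2078 and 3882 CPM in monocyte-gated cells of mavrilimumab 1 and 2. All 8 neural markers were detected in each of those vehicle IgG 2 groups. In the monocyte-gated cells of mavrilimumab 1 and 2 only 3 and 4 of 8 were, and whether their sums reflect neural RNA was not tested. Free RNA was estimated at 26.7% of the NK sum and 29.2% of the microglia sum of vehicle IgG 2, from 3 marker lists each. It was estimated at 2.41% of the CD8 T sum of that library, from 8 lists. Each estimate is the lowest ratio to free RNA among the usable marker lists of other cell types. Except where values with ambient RNA subtracted are given, the part of these markers and of free RNA in the results was not tested.

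TGF-beta is secreted as a latent complex, and integrins that contain the alpha V chain encoded by Itgav can release the active ligand. The ligand binds a receptor made of Tgfbr2 and Tgfbr1, which activates SMAD proteins, and Smad7 is an inhibitor that the pathway itself induces. In T cells the pathway is known to induce Itgae, whose product CD103 pairs with the beta 7 integrin chain and binds E-cadherin. Itga1 encodes CD49a, a collagen-binding integrin chain, Cd69 opposes exit from tissue through the receptor S1PR1, and Hobit maintains residency in lymphocytes. In the brain, microglia are known to depend on TGF-beta for their identity.

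Promoters were taken from RefSeq for both receptor chains, which are set side by side in the results below, and for Itga1, which differed between CD8 and CD4 T cells, to show the sequence at their starts. Each runs from 250 bases before to 50 after the annotated start on the gene's own strand, in GRCm38.p6. Promoters of 6 of the 10 genes were read, and that of Smad7 was not among them. Capitals mark matches, on either strand, to 3 short motifs. These are the SMAD-binding element CAGAC, which reads as GTCTG on the other strand, the RUNX core TGTGGT, which there reads as ACCACA, and the PU.1 core GAGGAA, which there reads as TTCCTC. None of the motifs overlaps another in these promoters. Tgfbr1 is shown at the first of its 2 annotated starts, where none matched.
Tgfbr1, chr4:47352972-47353271, plus strand: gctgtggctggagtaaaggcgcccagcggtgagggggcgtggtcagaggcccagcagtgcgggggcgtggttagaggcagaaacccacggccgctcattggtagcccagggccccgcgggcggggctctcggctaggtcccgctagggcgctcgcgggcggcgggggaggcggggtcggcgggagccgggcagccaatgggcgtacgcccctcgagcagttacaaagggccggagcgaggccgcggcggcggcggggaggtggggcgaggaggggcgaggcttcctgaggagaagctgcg
Tgfbr2, chr9:116175314-116175613, minus strand: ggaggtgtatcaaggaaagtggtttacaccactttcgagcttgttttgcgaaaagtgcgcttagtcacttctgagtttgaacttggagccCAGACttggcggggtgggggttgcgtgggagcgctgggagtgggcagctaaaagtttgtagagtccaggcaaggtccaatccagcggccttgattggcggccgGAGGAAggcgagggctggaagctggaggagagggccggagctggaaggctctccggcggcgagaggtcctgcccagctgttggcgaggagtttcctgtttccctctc
Itga1, chr13:115101915-115102214, minus strand: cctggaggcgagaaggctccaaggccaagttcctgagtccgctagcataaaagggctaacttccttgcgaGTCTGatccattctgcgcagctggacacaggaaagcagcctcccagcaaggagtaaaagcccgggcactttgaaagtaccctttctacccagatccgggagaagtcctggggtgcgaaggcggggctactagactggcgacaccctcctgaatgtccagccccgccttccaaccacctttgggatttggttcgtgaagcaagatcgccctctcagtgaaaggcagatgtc
The Tgfbr2 promoter held 1 SMAD-binding element and 1 PU.1 core, and that of Itga1 held 1 SMAD-binding element. At its second start, chr4:47385966-47386265, Tgfbr1 held 1 of each of these. The Tgfb2 promoter held 2 SMAD-binding elements and 1 PU.1 core, that of Itgav 2 PU.1 cores, and that of Tgfb1 none. No RUNX core occurred in any of them. These are short motifs: among 32851 promoters of the same length, 49.6% held the SMAD-binding element, 16.8% the RUNX core and 28.3% the PU.1 core. The matches describe sequence and are not evidence of binding.

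The level of each gene in each cell group was then compared between groups, with the counts of all cells of a group in a library summed first. The library was a block, and all groups of the fit shared 1 estimate of the spread left after it. For pairs of groups, spread below means that estimate and not the spread of the 2 groups named. Of 150 tests, 10 genes in 15 pairs of groups, 88 passed an adjusted p of 0.05 (58.7%), against 32% of all 214545 gene tests over the same pairs. Per gene the number of pairs that differed was 12 for Tgfb1 and Tgfbr2, 11 for Cd69 and Itga1, 10 for Znf683, 9 for Itgae and Smad7, 7 for Tgfbr1, 4 for Tgfb2 and 3 for Itgav. Between CD8 and CD4 T cells 1 of 10 differed (1.75% of all genes tested), between CD8 T and NK cells 1 of 10 (4.19%), and between CD4 T and NK cells 4 of 10 (8.19%). Between CD8 T cells and microglia 9 of 10 differed (49.4%), 4 higher in CD8 T cells (25.3%) and 5 higher in microglia (24.1%). Microglia differed from CD4 T cells in 9 of 10 (45.9%), from NK cells in 7 (34.2%), from monocyte-gated cells in 6 (28.2%) and from neural cells in 5 (45.2%). Monocyte-gated cells differed from CD8 T cells in 7 of 10 (28.6%), from CD4 T cells in 5 (26.8%), from NK cells in 6 (21.4%) and from neural cells in 8 (44.7%). Neural cells differed from CD8 T cells in 7 of 10 (51.9%), from CD4 T cells in 6 (47.7%) and from NK cells in 7 (41.5%). Levels below are CPM of the summed UMIs and are compared within a gene, never between genes. They are listed in the order vehicle IgG 1, vehicle IgG 2, mavrilimumab 1, mavrilimumab 2; for NK and monocyte-gated cells vehicle IgG 1 is missing, and for neural cells only vehicle IgG 2 and mavrilimumab 2 are given.

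**Figure D1:**
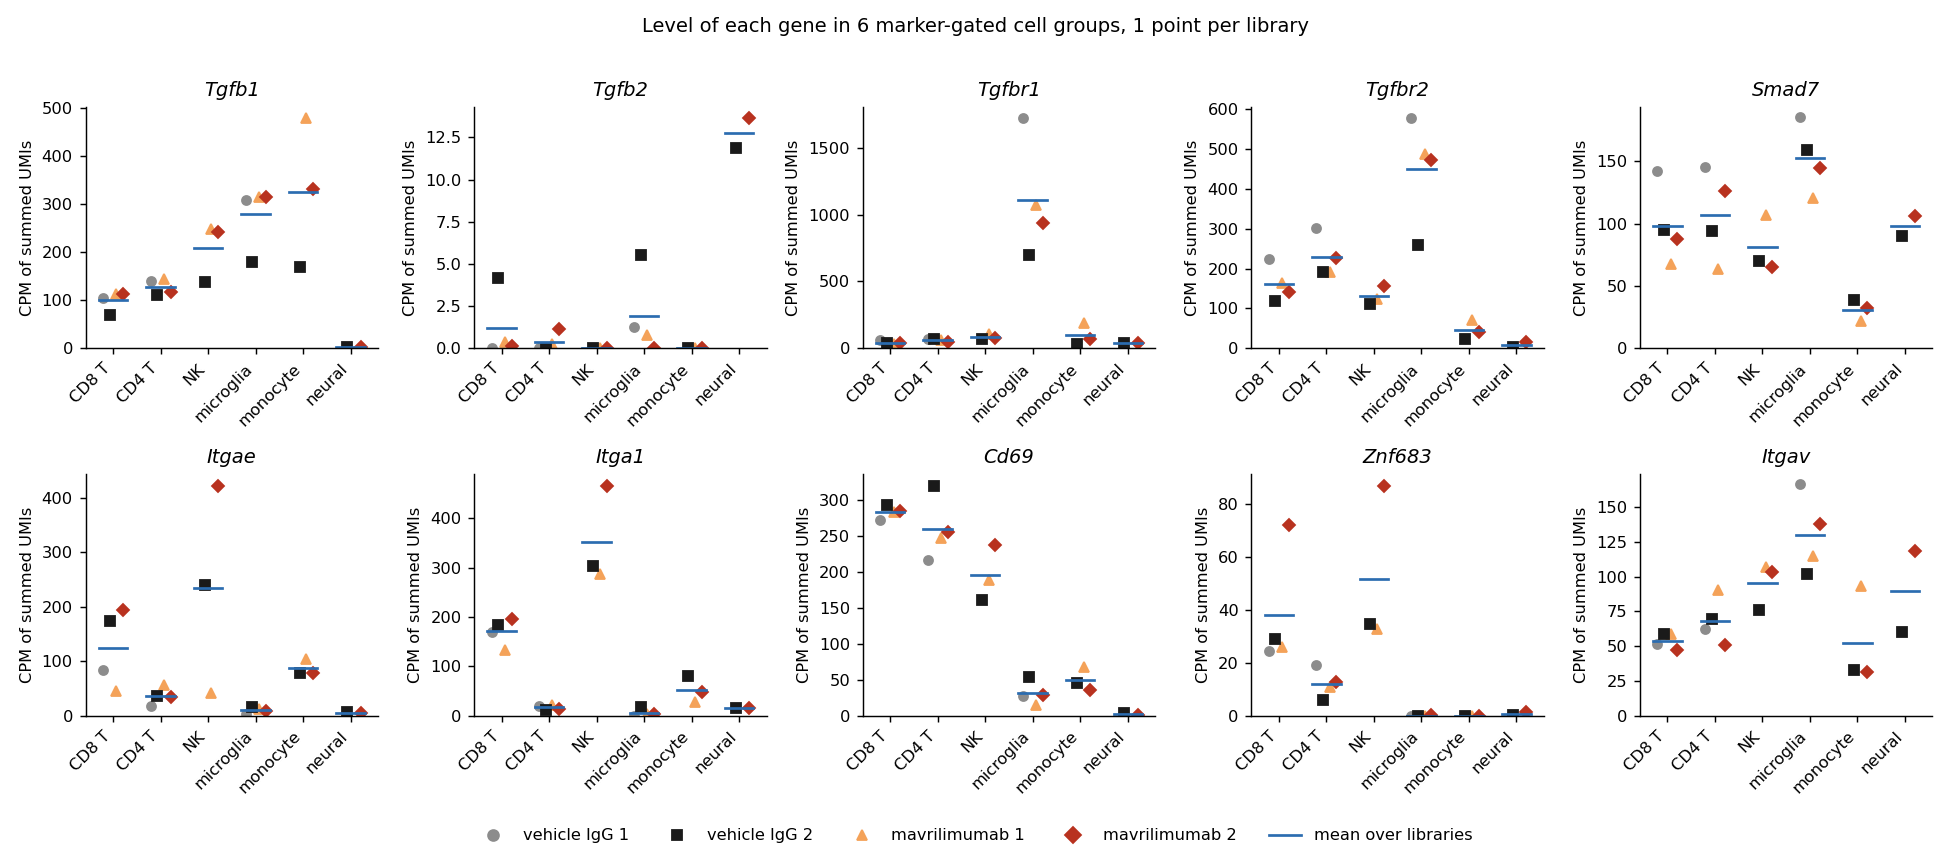
Level of each gene (vertical axis, CPM of summed UMIs, linear and starting at 0) in 6 marker-gated cell groups (horizontal axis). Each point is 1 library and each blue bar the mean over libraries. Tgfbr1 lay between 699.6 and 1722 CPM in microglia and at or below 191 CPM elsewhere; Itga1 and Itgae were highest in NK and CD8 T cells.

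Tgfb1 (chr7:25687002-25705077), which encodes the ligand TGF-beta 1, was found in every immune group and was highest in monocyte-gated cells and microglia. It stood at 168, 478 and 331 CPM in monocyte-gated cells and at 308, 180.4, 314 and 314 CPM in microglia. NK cells held 138, 247 and 242 CPM, CD4 T cells 141, 112, 144 and 118 CPM, and CD8 T cells 105, 69.7, 113 and 114 CPM. Vehicle IgG 2 was the lowest library in each of these 5 groups. Neural cells held 2.32 and 3.72 CPM (170 and 9 UMIs), below all libraries of all immune groups. Microglia exceeded CD8 T cells 2.68-fold (log2 SE 0.16, edgeR adjusted p = 5.06e-06) and CD4 T cells 2.24-fold (SE 0.17, adjusted p = 4.69e-05). CD8 T cells exceeded neural cells 33.0-fold (SE 0.27, adjusted p = 3.38e-09). Monocyte-gated cells and microglia did not differ beyond their spread (adjusted p = 0.37), nor did microglia and NK cells (adjusted p = 0.065) or CD4 and CD8 T cells (adjusted p = 0.61). NK cells exceeded CD8 T cells 1.94-fold (SE 0.18, adjusted p = 0.0071) and CD4 T cells 1.63-fold (SE 0.19, adjusted p = 0.031). The first of these calls was lost without mavrilimumab 1 (adjusted p = 0.069) or mavrilimumab 2 (adjusted p = 0.23), with cells of several groups kept (adjusted p = 0.059) and without the library block (adjusted p = 0.30). The second was lost without vehicle IgG 1 (adjusted p = 0.075), mavrilimumab 1 (adjusted p = 0.098) or mavrilimumab 2 (adjusted p = 0.515), and held in 5 of 12 alternatives in all.

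Tgfb2, the gene of a second ligand, TGF-beta 2, was highest in neural cells. Neural cells held 11.9 and 13.6 CPM, from 868 and 33 UMIs. Microglia held 1.28, 5.51, 0.776 and 0 CPM, CD8 T cells 0, 4.16, 0.395 and 0.154 CPM, and CD4 T cells 0, 0, 0.269 and 1.12 CPM. These 3 groups had 20, 33 and 6 UMIs over their libraries, and the highest value of microglia and of CD8 T cells came from vehicle IgG 2, where free RNA held Tgfb2 at 14.3 CPM. No Tgfb2 UMI was found among 6507912 UMIs of NK cells or 2171406 of monocyte-gated cells. Set against 3 counts over the group, the neural level was at least 27.6-fold that of NK cells and at least 9.23-fold that of monocyte-gated cells. Without mavrilimumab 2 these limits were 6.27-fold and 2.41-fold. The test called 4 of 15 pairs, all of them neural cells above a lymphocyte or monocyte group. Neural cells and microglia, next in the order, did not differ beyond their spread (log2 difference 3.02, SE 1.53, adjusted p = 0.13). The call against monocyte-gated cells (adjusted p = 0.046) held in 4 of 12 alternatives. It was lost without vehicle IgG 1, mavrilimumab 1 or mavrilimumab 2 (adjusted p from 0.060 to 0.16). The call against NK cells (adjusted p = 0.017) held in 10 of 12 and was lost with limma-voom (adjusted p = 0.061) and without mavrilimumab 2 (adjusted p = 0.056). The calls against CD8 T cells (adjusted p = 0.046) and CD4 T cells (adjusted p = 0.0496) each held in 5 of 12 alternatives, and leaving out any of vehicle IgG 1, mavrilimumab 1 and mavrilimumab 2 ended them (adjusted p from 0.076 to 0.23 for CD8 T cells).

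Tgfbr1 (chr4:47353222-47414926), the signaling receptor chain, was high in microglia. They held 1722, 699.6, 1069 and 939 CPM. Monocyte-gated cells held 36, 191 and 67.3 CPM and NK cells 70.3, 107 and 74 CPM. CD4 T cells held 69.5, 69.5, 63.8 and 45.8 CPM, CD8 T cells 60.6, 38.4, 30.0 and 38 CPM, and neural cells 41.9 and 40.9 CPM. The lowest microglial library was above every library of every other group. Microglia exceeded CD8 T cells 24.8-fold (log2 SE 0.34, adjusted p = 9.07e-08), CD4 T cells 18.3-fold (SE 0.34, adjusted p = 3.07e-07), NK cells 12.2-fold (SE 0.39, adjusted p = 6.31e-06), monocyte-gated cells 10.4-fold (SE 0.38, adjusted p = 2.4e-05) and neural cells 23.1-fold (SE 0.47, adjusted p = 3.08e-06). These calls held in all 12 alternatives tried, and without mavrilimumab 1 the fold against monocyte-gated cells was 16.2. No other pair of neighbors in the order differed beyond its spread (adjusted p from 0.43 to 0.85). Free RNA of vehicle IgG 1 held Tgfbr1 at 1647 CPM, and CD8 T cells of that library, with the highest microglial markers of any CD8 T sum, had the highest CD8 T level. Free RNA was estimated at 0% of that CD8 T sum, because the estimate takes the lowest marker list of other cell types and no neutrophil marker was found there. The source of the microglial markers in that sum was not tested.

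Tgfbr2 (chr9:116087695-116175363), the ligand-binding chain, was also highest in microglia but was high in lymphocytes too. Microglia held 577, 258, 487 and 472 CPM, CD4 T cells 302, 190.5, 192 and 227 CPM, and CD8 T cells 224, 118, 164 and 142 CPM. NK cells held 111, 124 and 157 CPM, monocyte-gated cells 24, 71.9 and 41 CPM, and neural cells 2.98 and 15.3 CPM. The vehicle IgG 2 value of microglia lay inside the range of CD4 T cells, while the other 3 libraries stood above it. Microglia exceeded CD4 T cells 2.00-fold (log2 SE 0.25, adjusted p = 0.0046), which was lost with cells of several groups kept (adjusted p = 0.071) and without the library block (adjusted p = 0.064), and CD8 T cells 2.65-fold (SE 0.25, adjusted p = 0.0003). CD4 T, CD8 T and NK cells formed a run in which no neighbors differed (adjusted p = 0.60 and 0.90). CD8 T cells exceeded monocyte-gated cells 3.44-fold (SE 0.33, adjusted p = 0.00092). NK cells exceeded them 2.97-fold (SE 0.35, adjusted p = 0.0049), which was lost without mavrilimumab 2 (adjusted p = 0.094), without doublets (adjusted p = 0.067), with cells of several groups kept (adjusted p = 0.055) and without the library block (adjusted p = 0.081). Monocyte-gated cells exceeded neural cells 6.76-fold (SE 0.42, adjusted p = 0.00013), and 4.02-fold without vehicle IgG 2 and 15.5-fold without mavrilimumab 2. CD8 T cells exceeded neural cells 23.3-fold in Tgfbr2 (SE 0.41, adjusted p = 8.12e-07), and 11.6-fold without vehicle IgG 2 and 46.2-fold without mavrilimumab 2, whereas in Tgfbr1 the difference between these groups did not pass the test (adjusted p = 0.85).

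Smad7, the inhibitor, was highest in microglia and lowest in monocyte-gated cells. Microglia held 185, 159, 120.3 and 144 CPM, CD4 T cells 145, 93.7, 63.4 and 127 CPM, and CD8 T cells 142, 94.5, 67.4 and 87.3 CPM. Neural cells held 90.4 and 106 CPM, NK cells 70.3, 107 and 65.2 CPM, and monocyte-gated cells 39, 21.6 and 32 CPM. Every monocyte-gated library was below every library of the other groups. Microglia exceeded them 4.38-fold (log2 SE 0.23, adjusted p = 1.64e-05), CD4 T cells 2.93-fold (SE 0.23, adjusted p = 0.00021) and CD8 T cells 2.83-fold (SE 0.23, adjusted p = 0.00021), each in all 12 alternatives. Microglia exceeded CD8 T cells 1.55-fold (SE 0.17, adjusted p = 0.0060), although the ranges overlapped and the call was lost without the library block (adjusted p = 0.073). Mavrilimumab 1 was the lowest library in microglia and in both T cell groups.

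Itgav (chr2:83722303-83806917), the alpha V integrin chain, differed in the fewest pairs, 3 of 15. Microglia held 167, 102, 115 and 138 CPM, NK cells 76.4, 107 and 104 CPM, and neural cells 60.2 and 119 CPM. CD4 T cells held 62.5, 69.5, 90.3 and 50.9 CPM, CD8 T cells 51.8, 58.6, 58.7 and 47.2 CPM, and monocyte-gated cells 33, 93.5 and 31.4 CPM. No neighbors in this order differed beyond their spread (adjusted p from 0.23 to 0.91). Microglia exceeded CD8 T cells 2.32-fold (log2 SE 0.25, adjusted p = 0.00089) and CD4 T cells 2.05-fold (SE 0.26, adjusted p = 0.0040), in all 12 alternatives. They exceeded monocyte-gated cells 2.70-fold (SE 0.32, adjusted p = 0.0039), which was lost without mavrilimumab 2 (adjusted p = 0.093).

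The residency genes were highest in NK or CD8 T cells, and for Itgae and Itga1 the mean of monocyte-gated cells lay above that of CD4 T cells. Itgae (chr11:73090505-73147449) stood at 240.1, 41.2 and 422 CPM in NK cells, at 84.1, 173, 45.2 and 193 CPM in CD8 T cells, and at 78.1, 104 and 78.2 CPM in monocyte-gated cells. CD4 T cells held 17.4, 36.3, 57 and 34.6 CPM, microglia 3.72, 15.1, 13.2 and 8.3 CPM, and neural cells 6.02 and 5.37 CPM. Libraries of 1 group lay far apart: the NK value of mavrilimumab 1 rested on 5 UMIs from 20 cells, and among CD8 T cells vehicle IgG 2 and mavrilimumab 2 stood above the other two. CD8 T cells exceeded microglia 14.0-fold (log2 SE 0.55, adjusted p = 4.8e-05) and neural cells 30.9-fold (SE 0.75, adjusted p = 0.00013). The 4 highest groups did not differ between neighbors (adjusted p from 0.24 to 0.68). CD4 T cells exceeded microglia 4.23-fold (SE 0.56, adjusted p = 0.0068). Monocyte-gated cells exceeded microglia 8.36-fold (SE 0.62, adjusted p = 0.0021). NK cells exceeded CD4 T cells 5.20-fold (SE 0.57, adjusted p = 0.017), which was lost without vehicle IgG 1 (adjusted p = 0.053) or mavrilimumab 2 (adjusted p = 0.47). The fold was 2.81 without mavrilimumab 2 and 9.36 without mavrilimumab 1.

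Itga1 (chr13:114958079-115101964) set CD8 T cells and NK cells apart from CD4 T cells. NK cells held 304, 288 and 466 CPM and CD8 T cells 170.1, 184, 133 and 197 CPM. Monocyte-gated cells held 81.1, 28.8 and 48.7 CPM and CD4 T cells 20.0, 12.1, 21.8 and 13.5 CPM. Neural cells held 15.1 and 14.9 CPM and microglia 0.116, 18.6, 3.88 and 2.93 CPM. No CD8 T library overlapped a CD4 T library. CD8 T cells exceeded CD4 T cells 9.66-fold (log2 SE 0.59, adjusted p = 0.0098), the single gene of the 10 that separated these groups. The call was lost without mavrilimumab 1 (adjusted p = 0.16) or mavrilimumab 2 (adjusted p = 0.15), with log2 differences of 3.65 and 3.03 against 3.27 with all libraries. NK cells exceeded CD4 T cells 16.4-fold (SE 0.66, adjusted p = 0.0013), again lost without mavrilimumab 2 (10.4-fold, adjusted p = 0.10). NK and CD8 T cells did not differ beyond their spread (adjusted p = 0.66). Against microglia, CD8 T cells were 45.5-fold higher (SE 0.68, adjusted p = 1.06e-05), 26.4-fold without vehicle IgG 1 and 95-fold without vehicle IgG 2.

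Cd69 (chr6:129267324-129275375), an early activation and retention receptor, was highest in the lymphocyte groups. CD8 T cells held 273, 294, 284 and 285 CPM, CD4 T cells 217, 321, 247 and 256 CPM, and NK cells 161, 189 and 238 CPM. Monocyte-gated cells held 45, 68.3 and 35.3 CPM, microglia 28.2, 53.7, 14.7 and 28.4 CPM, and neural cells 3.93 and 0.827 CPM. Every library of the 3 lymphocyte groups stood above every library of the other groups, CD4 T cells overlapped both CD8 T and NK cells, and every NK library lay below every CD8 T library. CD8 and CD4 T cells did not differ beyond their spread (adjusted p = 0.87), nor did CD4 T and NK cells (adjusted p = 0.56). The difference between CD8 T and NK cells did not pass the test either, although their ranges lay apart. CD8 T cells exceeded monocyte-gated cells 6.34-fold (log2 SE 0.39, adjusted p = 0.00013), microglia 9.68-fold (SE 0.32, adjusted p = 1.33e-06) and neural cells 119-fold (SE 0.54, adjusted p = 1.86e-07), the last being 394-fold without vehicle IgG 2.

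Znf683 (chr4:134051195-134058941) was almost absent outside lymphocytes. NK cells held 34.8, 33 and 87 CPM, CD8 T cells 24.4, 29.1, 26.1 and 72 CPM, and CD4 T cells 19.1, 6.05, 10.8 and 12.7 CPM. Mavrilimumab 2 was the highest library in NK and CD8 T cells, by more than 2-fold in each. Microglia had 2 UMIs among 19532911, neural cells 10 among 75654730 (7 in vehicle IgG 2 and 3 in mavrilimumab 2), and monocyte-gated cells none among 2171406. The CD8 T level was at least 27.4-fold, and the NK level at least 37.3-fold, that of monocyte-gated cells at 3 counts over the group. Without mavrilimumab 2, which gave 1560210 of the monocyte UMIs, these limits were 5.41-fold and 6.90-fold. Pooled over libraries, the ratio of CD8 T cells to microglia was 529 (exact 95% interval 146 to 4368, counting error only). Mavrilimumab 2 gave 1869 of the 2333 CD8 T UMIs and both microglial UMIs, so without it no microglial UMI was left. CD8 T and NK cells did not differ beyond their spread (adjusted p = 0.9), nor did CD8 and CD4 T cells (adjusted p = 0.073). NK cells passed the test above CD4 T cells, a call that held in 6 of 12 alternatives. It was lost without mavrilimumab 1 (adjusted p = 0.11), mavrilimumab 2 (adjusted p = 0.37) or the library block (adjusted p = 0.12). Subtracting ambient RNA (adjusted p = 0.13), cells of several groups kept (adjusted p = 0.18) and 2000 UMIs (adjusted p = 0.086) also ended it.

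Shares of cells with at least 1 UMI were compared between CD8 T cells and microglia at equal depth for 4 of the genes. With each cell thinned to 1000 UMIs, a Tgfbr1 UMI was found in 69.7%, 50.8%, 64.7% and 50.8% of microglia and in 4.29%, 3.34%, 3.31% and 4.93% of CD8 T cells. Itgae UMIs were found in 10.0%, 14.7%, 3.72% and 14.3% of CD8 T cells, against 0.68%, 0%, 1.45% and 0.84% of microglia, which should lack CD103. Itga1 UMIs were found in 14.3%, 15.7%, 11.3% and 15.2% of CD8 T cells and in 0%, 1.39%, 0% and 0.28% of microglia. Cd69 UMIs were found in 15.7%, 24.4%, 22.7% and 23.4% of CD8 T cells and in 2.05%, 2.78%, 1.93% and 3.07% of microglia. For these 3 residency genes the CD8 T share exceeded the microglial one in each library, and for Tgfbr1 the reverse held. Before thinning, median UMIs per cell were 14616, 2717, 4744 and 12488 in CD8 T cells and 14180, 3163.5, 5491 and 10915 in microglia, and the unthinned Itgae shares of CD8 T cells were 32.9%, 30.7%, 9.69% and 44.2%.

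Other genes of the pathway were read from lists of TGF-beta and residency genes. The set of 11 regulators and targets of the pathway, several of them induced by it, was compared between microglia and 3 other groups. In CD8 T cells against microglia, 9 of 11 were lower and none higher (median log2 difference -1.66, against -0.01 over all genes), where 24.1% of all genes were lower and 25.3% higher. Among them were Tgfbi, an extracellular matrix protein induced by TGF-beta (log2 difference -6.49, SE 0.77), and the SMAD inhibitors Ldlrad4 (-2.38, SE 0.28), Pmepa1 (-2.13, SE 0.27) and Ski (-2.10, SE 0.25). In microglia against monocyte-gated cells 7 of 11 were higher and 1 lower (28.2% of all genes differed); Pmepa1 was higher by 3.61 (SE 0.37) and Ldlrad4 by 3.57 (SE 0.36), and Tgfbi was the exception at -2.87 (SE 0.61). In microglia against neural cells 9 of 11 were higher and none lower (45.2% of all genes differed).

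Of the genes that store and release the ligand, 12 of 14 listed were tested. In CD8 T cells against microglia 1 was higher and 4 were lower, 5 of 12 where 49.4% of all genes differed. The lower ones included Itgb5, a beta chain that pairs with alpha V (log2 difference -7.32, SE 0.95), and Nrros, which anchors latent TGF-beta on microglia (-1.94, SE 0.21). Itgb1 was higher in CD8 T cells (1.35, SE 0.15). In microglia against neural cells 3 were higher and 4 lower, where 45.2% of all genes differed. The latent TGF-beta binding proteins Ltbp4 (-4.66, SE 1.01) and Ltbp3 (-3.65, SE 1.13) and the alpha V partner Itgb8 (-4.55, SE 0.96) were higher in neural cells, and Nrros was higher in microglia (3.72, SE 0.31). Among 8 further receptors and SMADs, 2 were higher and 5 lower in CD8 T cells than in microglia, where 25.3% of all genes were higher and 24.1% lower. Acvrl1 stood at -5.93 (SE 0.49), Eng at -3.49 (SE 0.57), Smad3 at -1.23 (SE 0.33) and Smad4 at 0.43 (SE 0.15).

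Further residency and recirculation genes were counted in the same way. In CD8 T cells against microglia 9 of 14 further residency genes were higher and 2 lower, and 8 of 11 recirculation genes were higher and 1 lower, where 25.3% of all genes were higher and 24.1% lower. Between CD8 and CD4 T cells 4 of 14 residency genes were higher in CD8 T cells and none lower, where 1.75% of all genes differed, and the median of the list was a log2 difference of -0.14 (0.01 over all genes). They included Cdh1, E-cadherin, the ligand of CD103 (4.35, SE 0.41), the chemokine Xcl1 (3.90, SE 0.86) and the chemokine receptor Cxcr6 (2.03, SE 0.46). The other was Qpct. Against NK cells 2 of 11 recirculation genes were higher in CD8 T cells and 1 lower, where 4.19% of all genes differed. CD8 T cells held more Ccr7, a lymph node homing receptor (4.73, SE 0.73), and S1pr1, the tissue exit receptor (2.83, SE 0.53), and less S1pr5 (-3.61, SE 0.89).

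CD4 T cells were next split by a UMI of Foxp3, the transcription factor of regulatory T cells, a gene outside the list of members. Foxp3-positive cells numbered 12, 7, 417 and 54, and negative cells 87, 106, 1331 and 353. Only the mavrilimumab libraries had 20 cells on both sides and entered the test; median UMIs of positive and negative cells were 3653 and 3511 in mavrilimumab 1, and 7446.5 and 8252 in mavrilimumab 2. Negative cells include those whose Foxp3 mRNA was not captured. The 4 B cell markers summed to 2042 CPM in CD4 T cells of mavrilimumab 1, and their part in the split was not tested. Of 9 members tested 4 differed (44.4%), against 3.49% of 10651 genes. Of these 3 were higher in Foxp3-positive cells (2.29% of genes) and 1 was lower (1.2%).

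Itgae was the member that followed Foxp3 most closely. It stood at 146.9, 146.3, 160.3 and 218 CPM in Foxp3-positive cells and at 0, 23.6, 19.4 and 6.48 CPM in negative cells. All 4 libraries moved the same way, and no positive value overlapped a negative one. Over the tested libraries the difference was 13.0-fold (log2 3.70, SE 0.33, adjusted p = 0.00026), and it held in all 8 alternatives. For every gene of this split, none of the 8 leaves out a tested library, since the fit needs both. Itgae was thus higher in the Foxp3-positive fraction of a group that as a whole held 36.3 CPM ± 16.2 (SD, n = 4).

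The receptor genes moved in opposite directions. Tgfbr1 stood at 191, 117, 134.6 and 93.2 CPM in Foxp3-positive cells and at 53.2, 64.1, 38 and 38.6 CPM in negative cells. It was 2.95-fold higher in positive cells (log2 SE 0.21, adjusted p = 0.0017), a call kept in 7 of 8 alternatives. Tgfbr2 stood at 308.5, 58.5, 132 and 150.4 CPM in positive cells and at 301, 206, 214.5 and 238 CPM in negative cells. It was 1.67-fold lower in positive cells (SE 0.17, adjusted p = 0.038); vehicle IgG 1, with 12 positive cells, did not share the direction. Itgav stood at 162, 205, 124 and 102 CPM in positive cells and at 49.2, 54, 78 and 43.1 CPM in negative cells, 1.79-fold higher (SE 0.18, adjusted p = 0.032). The Tgfbr2 and Itgav calls each held in 4 of 8 alternatives and were lost with DESeq2 (adjusted p = 0.32 and 0.43).

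**Figure D2:**
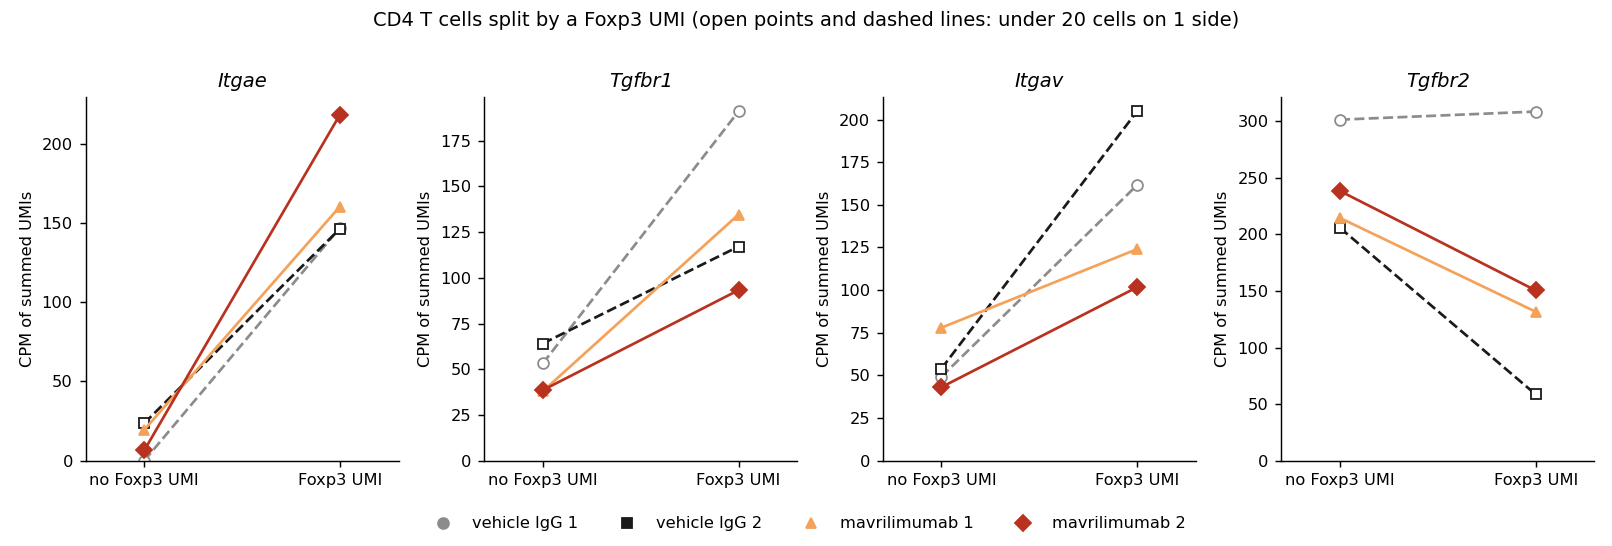
Levels of 4 genes (vertical axes, CPM of summed UMIs, linear from 0) in CD4 T cells without and with a Foxp3 UMI (horizontal axis), 1 line per library. Filled points entered the test; open points and dashed lines mark the 2 libraries with under 20 cells on 1 side. Itgae, Tgfbr1 and Itgav rise from left to right in every library, and Tgfbr2 falls in 3 of 4.

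The remaining members did not pass the test in this split. Znf683 stood at 1.51 and 6.36 CPM in positive cells of the mavrilimumab libraries, 3 UMIs in each, and at 14.1 and 13.6 CPM in negative cells (adjusted p = 0.068). Cd69 stood at 281 and 479 CPM against 235 and 221 CPM (adjusted p = 0.16), and Tgfb1 at 182 and 178 CPM against 129.9 and 108 CPM (adjusted p = 0.13). Among listed genes, Itgb8, which with alpha V activates TGF-beta, was higher in Foxp3-positive cells (log2 difference 2.15, SE 0.26), as was Lrrc32, which holds latent TGF-beta on the surface of regulatory T cells, and the co-receptor gene Tgfbr3 was lower (-2.74, SE 0.28). Of 10 recirculation genes tested 6 were lower, where 1.2% of all genes were lower and 2.29% higher. The lower ones included Tcf7 (-2.61, SE 0.19), Ccr7 (-1.99, SE 0.19), Klf2 (-1.47, SE 0.23) and S1pr1 (-1.11, SE 0.20). Klrg1 was higher (4.17, SE 0.40). Of 14 residency genes Prdm1, which encodes Blimp-1, was the 1 that was higher (1.51, SE 0.29).

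CD8 T cells were split in the same way by an Itgae UMI, to ask which other members went with CD103. Positive cells numbered 23, 533, 190 and 815, and negative cells 47, 1204, 1771 and 1030. Positive cells were somewhat deeper in each library, with median UMIs of 15382, 3008, 5787 and 13566 against 14291, 2600, 4573 and 11638. Itgae itself was the split and is not a result. Of the 9 other members 1 differed (11.1%), against 1.02% of 12505 genes.

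That gene was Znf683. It stood at 8.37, 47.1, 52.4 and 105 CPM in Itgae-positive cells and at 33.1, 19.8, 22.4 and 43.2 CPM in negative cells. In 3 libraries the positive cells held more than 2-fold the negative level, and vehicle IgG 1, whose positive value rested on 3 UMIs, went the other way. The fitted difference was 2.19-fold (log2 1.13, SE 0.20, adjusted p = 0.032). The call held in 6 of 12 alternatives and was lost without vehicle IgG 2 (adjusted p = 0.053), mavrilimumab 1 (adjusted p = 0.14) or mavrilimumab 2 (adjusted p = 0.29), and with DESeq2 (adjusted p = 1.00). Itga1 showed the same pattern of libraries, at 100.5, 274, 236 and 282.5 CPM in positive cells and 208, 136, 119 and 122 CPM in negative cells. It did not pass with all 4 libraries (1.76-fold, log2 SE 0.22, adjusted p = 0.17). Without vehicle IgG 1, which had 23 positive cells, its log2 difference was 1.06 (adjusted p = 8.79e-05), and Tgfbr1 passed as well (log2 0.56, adjusted p = 0.023). Cd69 stood at 229, 305, 234 and 287 CPM in positive cells and 296.5, 288, 291.5 and 283.5 CPM in negative cells, with no shared direction (adjusted p = 0.85).

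**Figure D3:**
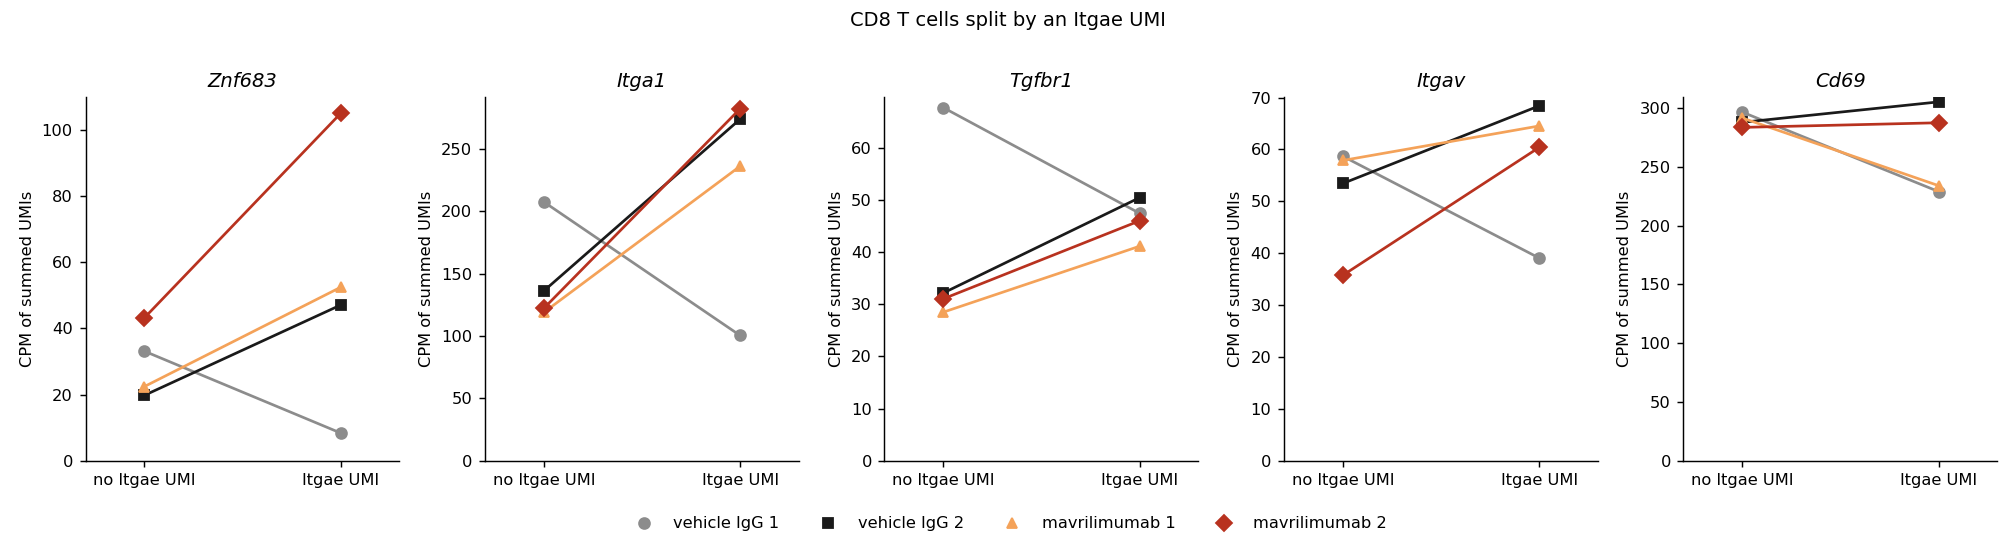
Levels of 5 genes (vertical axes, CPM of summed UMIs, linear from 0) in CD8 T cells without and with an Itgae UMI (horizontal axis), 1 line per library. Znf683, Itga1, Tgfbr1 and Itgav rise in 3 libraries and fall in vehicle IgG 1, which had 23 positive cells; Cd69 has no common direction.

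The same relation was read cell by cell at 1000 UMIs per cell. Itga1 UMIs were found in 26.3%, 19.2% and 28.5% of cells with an Itgae UMI in vehicle IgG 2, mavrilimumab 1 and mavrilimumab 2, and in 13.9%, 11% and 13.0% of cells without. In vehicle IgG 1, with 7 cells positive for Itgae at this depth, both shares were 14.3%. Znf683 UMIs were found in 3.14%, 5.48% and 12.9% of cells with an Itgae UMI, against 2.29%, 1.96% and 4.11%, while vehicle IgG 1 had 0% against 3.17%. Cd69 UMIs were found in 28.6%, 16.4% and 24.7% against 23.6%, 22.9% and 23.2%, and in vehicle IgG 1 in 14.3% against 15.9%, so 2 libraries were higher and 2 lower. Cells of a library share its depth and free RNA, so these shares are a description. Among further residency genes Ahr (1.14, SE 0.18), Qpct (1.03, SE 0.13) and Xcl1 (0.94, SE 0.18) were higher in Itgae-positive cells, 3 of 14, and 1 of 11 recirculation genes, S1pr5, was lower. Of all genes tested in this split, 0.832% were higher and 0.192% lower.

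Clone size was taken from receptor sequences for the libraries with joined barcodes. In mavrilimumab 1, 993 CD8 T cells belonged to clones of at least 2 cells and 666 to clones of 1 cell, and in mavrilimumab 2 the numbers were 538 and 1112. Vehicle IgG 1 had 5 cells in expanded clones and stayed out of the test. None of 9 members differed by the edgeR test or by DESeq2, against 0.513% of 11511 genes by edgeR. At an unadjusted p of 0.05, 1 of 9 members passed, Itgav, and 14% of genes did. The residency genes went opposite ways in the libraries. Itga1 stood at 117 CPM in expanded and 154 in single clones of mavrilimumab 1, but at 289.5 and 153 in mavrilimumab 2. Itgae stood at 33.1 and 58.3 CPM in mavrilimumab 1 and at 252 and 171 in mavrilimumab 2. Znf683 stood at 20.2 and 34.7 CPM in mavrilimumab 1 and at 98.4 and 61.0 in mavrilimumab 2. Itgav was higher in expanded clones of both, at 71.7 against 44.2 CPM and 57.8 against 40.2 CPM, without passing the test (1.47-fold, log2 SE 0.10, adjusted p = 0.088). Cells of a clone share an ancestor, and the libraries, not the cells, were the replicates.

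**Figure D4:**
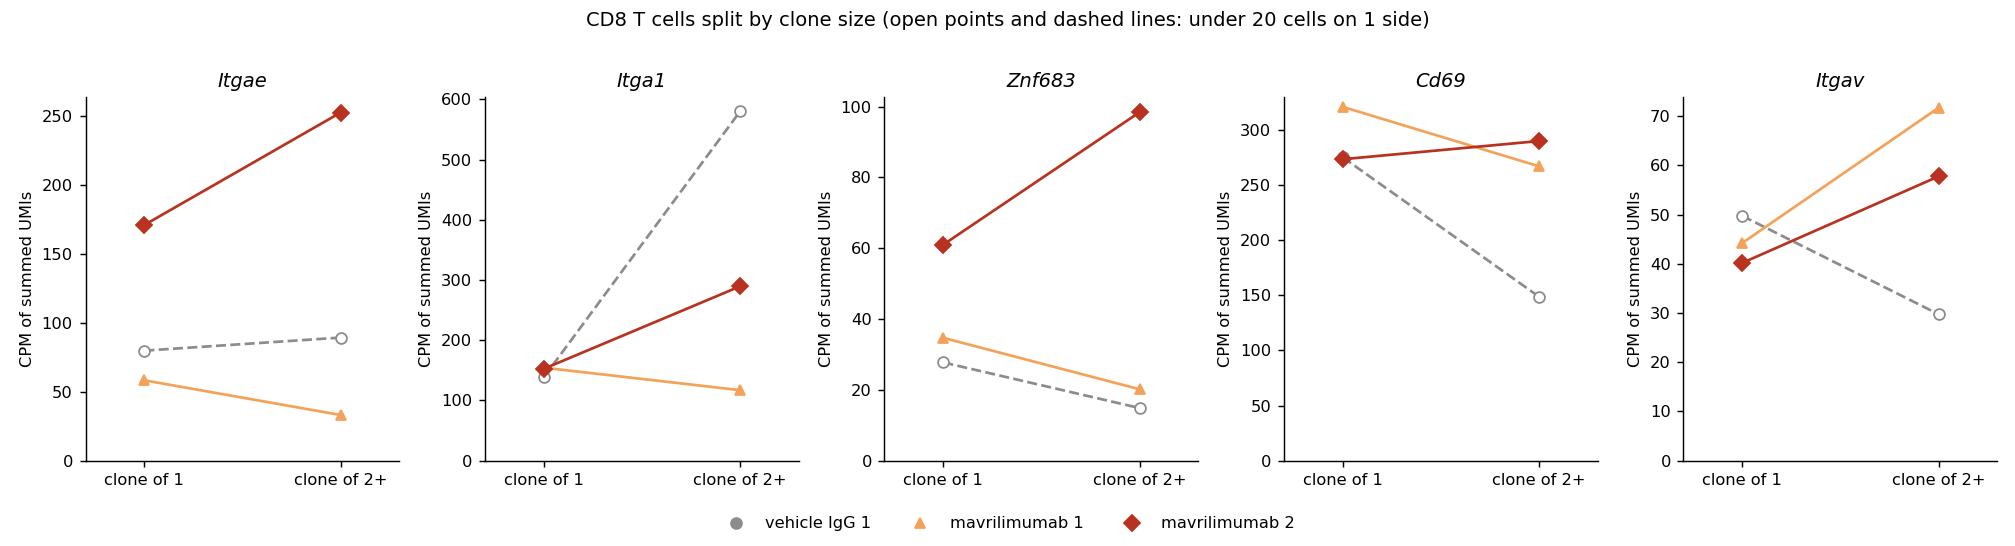
Levels of 5 genes (vertical axes, CPM of summed UMIs, linear from 0) in CD8 T cells of clones of 1 cell and of at least 2 cells (horizontal axis), 1 line per library with receptor data. Dashed lines with open points mark vehicle IgG 1, which had 5 cells in expanded clones. Itgae, Itga1 and Znf683 rise in mavrilimumab 2 and fall in mavrilimumab 1.

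Among listed genes, expansion went with less Ccr7 (log2 difference -3.07, SE 0.38). The call was lost with ambient RNA subtracted, under which no gene was called against 59, and with cells of several groups kept or doublets removed. Of 14 residency genes Prdm1 was the 1 that was higher, where 0.278% of all genes were higher. That call was lost under the same settings. S1pr5, Lrrc32, Qpct in the CD8 and CD4 comparison and Prdm1 here are named to complete the counts.

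The design's own comparison, mavrilimumab against vehicle IgG, was made within each cell group. Its direction follows the expression labels, which the names inside the receptor archives put in doubt. No member passed the edgeR test in any of 5 groups, with 9 members tested in CD8 T, CD4 T and NK cells and 8 in microglia and monocyte-gated cells. Of all gene tests over these groups 2.33% passed. At an unadjusted p of 0.05 no member passed in CD8 T cells (4.48% of genes), CD4 T cells (2.85%) or microglia (2.91%). In NK cells 2 passed, Znf683 and Tgfb1 (15.4% of genes), and in monocyte-gated cells 2 passed, Tgfbr1 and Tgfb1 (12.3%). DESeq2 called none of the members. Over all genes the same test called none in CD8 T cells (550 of 12273 at an unadjusted p of 0.05, and 27 with DESeq2), none in CD4 T cells (301 of 10559 unadjusted, 0 with DESeq2) and none in microglia (362 of 12452 unadjusted, 12 with DESeq2). It called 10.6% of genes in NK cells and 0.626% in monocyte-gated cells, where the vehicle arm was the single library vehicle IgG 2. Of the listed genes, NK cells of the mavrilimumab libraries held less of 2 of 8 ligand and latency genes (Itgb5 and Itgb8) and of 1 of 11 recirculation genes (S1pr1), and more of 1 of 14 residency genes (Xcl1, log2 difference 0.98, SE 0.33), where 10.6% of all genes were called. With DESeq2 none of these 4 passed (adjusted p from 0.44 to 1.00), nor did any of the 3 that could be tested with doublets left out. Xcl1 was also lost with ambient RNA subtracted (log2 difference 0.55, adjusted p = 0.95), where the others could not be tested, and Itgb5 and S1pr1 with cells of several groups kept (adjusted p = 0.13 and 0.067). Free RNA was estimated at 26.7% of the vehicle NK sum. Oligodendrocyte markers summed to 694 CPM in that sum, against 74.1 and 71.1 CPM in NK cells of mavrilimumab 1 and 2. Neural markers summed to 2082 CPM, against 906 and 1130 CPM. The part of these markers in the differences was not tested. In NK and monocyte-gated cells it was assumed that the lone library varies like the others, and the antibody cannot be told apart from that library.

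Fitted differences that missed the threshold are given with their errors. In monocyte-gated cells the log2 difference was 1.35 for Tgfb1 (SE 0.42, adjusted p = 0.28) and 1.84 for Tgfbr1 (SE 0.71, adjusted p = 0.35), against the single vehicle library. Microglial markers in these cells, 7, 8 and 7 of 8 detected, summed to 408, 2208 and 1077 CPM in vehicle IgG 2, mavrilimumab 1 and mavrilimumab 2, the same order as Tgfbr1 (36.0, 191 and 67.3 CPM), and their part in the difference was not tested. In NK cells, against the same single library, the log2 difference was 1.12 for Znf683 (SE 0.43, adjusted p = 0.073) and 0.81 for Tgfb1 (SE 0.41, adjusted p = 0.31). In CD8 T cells the log2 difference was 0.94 for Znf683 (SE 0.57), 0.46 for Tgfb1 (SE 0.25), -0.45 for Tgfbr1 (SE 0.32) and -0.53 for Smad7 (SE 0.29), with adjusted p from 0.915 to 0.925. In CD4 T cells it was 0.96 for Itgae (SE 0.47), and in microglia -0.80 for Cd69 (SE 0.47) and 0.42 for Tgfb1 (SE 0.35), with an adjusted p of 1.00 each. The ranges of the arms were also compared. In CD8 T cells 3 of 10 members had arms apart, Tgfb1 higher and Tgfbr1 and Smad7 lower in mavrilimumab (31.7% of genes). In CD4 T cells 2 of 10 did (30.7%), Tgfbr1 lower and Tgfb2 higher. Tgfb2 had 6 UMIs in CD4 T cells, none of them in the vehicle libraries, and was not among the genes tested there. In microglia 3 of 10 members had arms apart (31.2%), Tgfb1 higher and Smad7 and Tgfb2 lower. Without vehicle IgG 1 the vehicle arm of microglia is vehicle IgG 2 alone, which had the lowest Tgfb1 and Tgfbr2 of the 4 libraries and 29.2% free RNA, and the spread is that of the mavrilimumab libraries. In that fit Tgfb1 and Tgfbr2 in microglia passed (log2 differences of 0.91 and 1.00, adjusted p = 0.032 and 0.019), as did 10.9% of all 11736 genes tested, and Tgfbr1 in microglia then turned from -0.21 to 0.63.

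**Figure D5:**
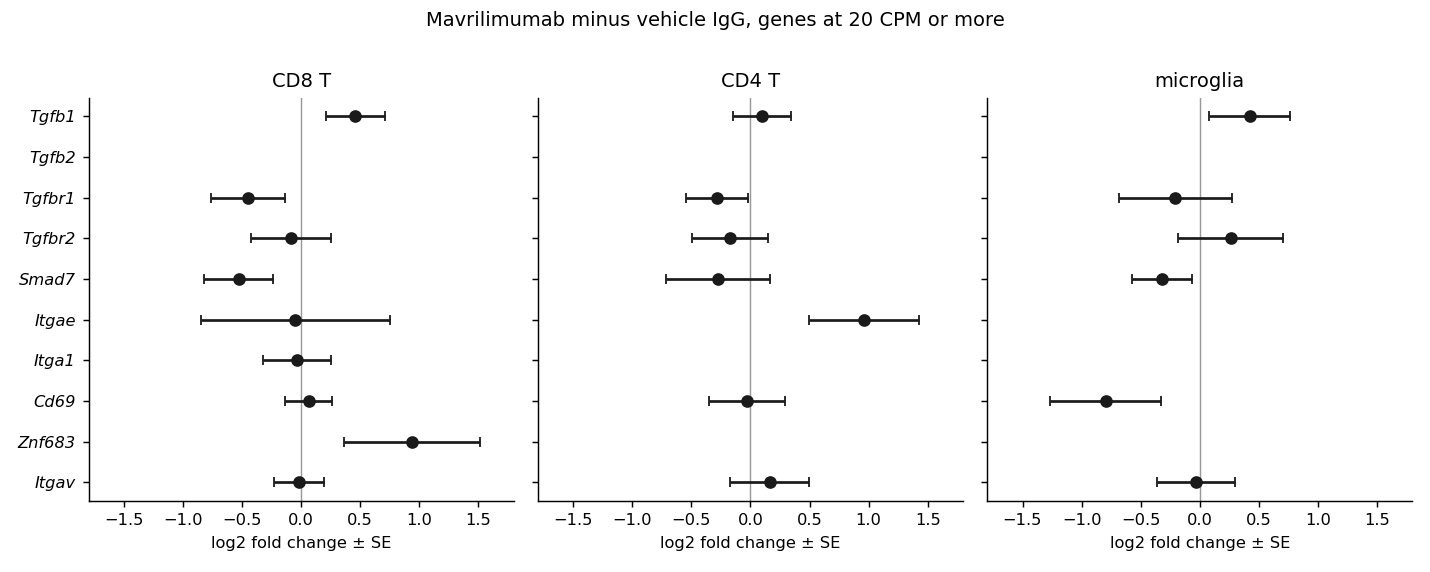
Fitted log2 fold change of mavrilimumab against vehicle IgG (horizontal axis; bars are ± 1 standard error) for each gene (vertical axis) in CD8 T cells, CD4 T cells and microglia. Genes with a mean under 20 CPM in a group are not drawn. No gene passed the test in any of the 3 groups.

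Shares of cells with a UMI were also compared between arms at 1000 UMIs. For Smad7, named after its values were seen, both mavrilimumab libraries had a lower share than both vehicle IgG libraries in all 3 groups: on average 7.62% against 15.7% in CD8 T cells, 8.52% against 16.7% in CD4 T cells and 12.4% against 16.0% in microglia. The two-sided exact permutation p was 0.333 each time, the smallest that 2 libraries against 2 allow. At 2000 UMIs the arms still lay apart in CD4 T cells and microglia but overlapped in CD8 T cells (exact p = 0.667), and unthinned they overlapped in all 3 groups (exact p from 0.667 to 1.00). Over all members and these groups, 8 of 30 sets of shares had arms apart (26.7%). Over all genes tested such a count was made for CPM only, at 30.7% to 31.7%, and not for shares. By level Smad7 in CD4 T cells overlapped. By library the CD8 T shares of Smad7 were 21.4%, 9.90%, 6.78% and 8.46%, so the vehicle IgG average was raised by vehicle IgG 1, with 70 cells. For Itgae in CD8 T cells the mean share was 8.99% in mavrilimumab and 12.3% in vehicle IgG (exact p = 0.667).

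Genes with the most similar pattern were sought over the 20 sums of cell group and library, among 10650 genes, by Pearson correlation of log2(CPM + 1). Sums of a library share its depth and free RNA, and sums of a cell group its type, so the values describe likeness only. Tgfb1 was most like Myo1f (r = 0.98), Tgfbr1 most like Ivns1abp (r = 0.96) and Tgfbr2 most like B4galt1 (r = 0.97). Itgae was most like Cd7 (r = 0.90), which was also second for Itga1 (r = 0.89) behind Klrk1 (r = 0.89). Cd69 was most like Rinl (r = 0.97), and Znf683 was most like Apol7e (r = 0.97), with Tbx21 also among the 3 most alike (r = 0.96). Itgav had Smad3 second (r = 0.88), and Smad7 was most like Slc11a2 (r = 0.89). Between members, Itgae and Itga1 had r = 0.84, Cd69 and Znf683 0.75, Tgfb1 and Tgfbr2 0.71, Tgfbr1 and Tgfbr2 0.56, and Tgfb1 and Tgfb2 -0.78.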

How the data were processed

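Expression was measured with 10x Genomics 5' libraries, and the deposited matrices hold UMI counts for each gene in each barcode, which the authors produced on mm10 without normalization. The submitters' processing notes name Cell Ranger 7.1.0 and Scanpy 1.8.2, while the headers inside the matrices name a later Cell Ranger release. No cell annotation was used. The ambient profile of each library came from barcodes of 10 to 300 UMIs. Groups were gated on CD8 T (Cd3e at least 1, Cd8a plus Cd8b1 at least 2), CD4 T (Cd3e and Cd4 at least 1, no Cd8a or Cd8b1), NK (no Cd3e, Ncr1 plus Klrb1c at least 2), microglia (P2ry12 plus Tmem119 at least 2), monocyte (Ccr2 plus Ly6c2 at least 2, Lyz2 at least 2, no Cd3e) and neural UMIs (no Ptprc, Nnat plus Mdk at least 3). Cells with the highest Scrublet scores were marked as doublets, at a preset rate of 0.8% per 1000 cells of the library. This gave 0.813% to 21.4% of cells per library, which follows from the number of cells and is not a measured doublet rate. Marked cells were left in for the main results and removed in an alternative.

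Counts were summed per library and group and compared in edgeR 4.0.16 (R 4.3.3) by quasi-likelihood fits (TMM, low counts filtered), with Benjamini-Hochberg adjustment over all genes tested at 0.05. Differences between groups and within splits kept the library as a block. CPM are summed UMIs of a gene scaled to 1000000 UMIs of the sum. DESeq2 1.42.0 and limma 3.58.1 were alternatives, as were other filters, doublet removal, subtraction of ambient RNA, thinning to 1000 UMIs and leaving out each library. The script was tested on simulated data. Shares were compared by exact permutation over libraries; intervals and limits cover counting error only.

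All 10 genes are reported in every group, by library where a library entered the comparison and as a range for sums of under 20 cells. For the gene lists, counts past the threshold are given for chosen lists and comparisons, not for every list in every comparison. Up to 4 genes per direction of largest fold change at a mean of at least 20 CPM are named, and for likeness up to 3 genes per member. Members and lists were chosen with earlier results of these data known. The result of 1 listed gene is not reported here.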

Additional observations from a re-analysis of the deposited data

Results flagged for a closer look

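Tgfb1 in microglia of vehicle IgG 2 stood at 180.4 CPM, apart from the other 3 libraries at 308 to 314 CPM, and was marked as a library far from the rest of its group. Free RNA was estimated at 29.2% of the UMIs of that sum, and whether it lowered the value was not tested. Znf683 in CD8 T cells of mavrilimumab 2 stood at 72.0 CPM, apart from 24.4 to 29.1 CPM in the other libraries. Of 22 sets of 4 libraries looked at, 2 were marked in this way, and chance marks about 1 in 20, or 1.1 of them.

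Tgfb2 was marked because its arms lay apart, without overlap, in opposite directions in 2 cell groups. The mavrilimumab minus vehicle IgG difference was 0.697 CPM in CD4 T cells, from 6 UMIs in all, and -3.01 CPM in microglia, from 20 UMIs. The vehicle CD4 T libraries had no UMI, and 3 counts there would be 2.6 and 9.07 CPM, so no direction was measurable in CD4 T cells at this depth. The difference between the groups was not tested.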

How the results depend on the processing

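Between cell groups, the 88 calls of members kept their direction in each of 12 alternatives. Calls kept numbered 85 with DESeq2 and with limma-voom, 86 without the filter on low counts, 82 at 2000 UMIs, 77 with cells of several groups kept, 86 without doublets, 83 with ambient RNA subtracted, 73 without the library block, and 81, 87, 74 and 64 without vehicle IgG 1, vehicle IgG 2, mavrilimumab 1 and mavrilimumab 2. The fold of a called member moved by over 1.5 times in 5, 22, 3 and 22 of 88 calls without these libraries in that order. Leaving out each library gave 64 to 96 calls of members and 29673 to 79368 of genes against 68612.

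For treatment, 0 members were called with all libraries, 2 with limma-voom, 1 without the low-count filter and 0 to 2 when each library was left out. Genes called numbered 27 with DESeq2 against 0 in CD8 T cells. In CD4 T cells they numbered 549 without the filter against 0, and 0 to 5 without each library. In microglia they numbered 12 with DESeq2, 8 without the filter and 0 to 1274 without each library, against 0. In NK cells 1205 became 233 with DESeq2, 2569 with limma-voom, 1912 without the filter, 267 without doublets and 357 with ambient RNA subtracted. In monocyte-gated cells 42 became 0, 544, 26, 107 and 17 with limma-voom, without the filter, at 2000 UMIs, with cells of several groups kept and with ambient RNA subtracted.

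Replicate numbers were tried as a replicate block for treatment. Same-numbered libraries deviated together with correlations of 0.17 in CD8 T cells, -0.03 in CD4 T cells and 0.20 in microglia, and with 2 pairs the numbers do not show a pairing. The block called 190 genes in microglia against 0 and 0 members.

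In the Itgae split 1 member became 0 with DESeq2, with cells of several groups kept and with ambient RNA subtracted, 2 with limma-voom and with thinning, 4 without the filter and 0 to 3 without each library. Genes went from 128 to 287 with limma-voom, 558 without the filter, 83 with ambient RNA subtracted and 63 to 328 without each library. In the Foxp3 split 4 members became 2 with DESeq2, at 2000 UMIs and without doublets, and 1 with thinning; genes went from 372 to 144, 651, 778 and 80 with DESeq2, limma-voom, no filter and thinning. In the clone split 0 members became 1 without the filter, and 59 genes became 825 without it, 4 with cells of several groups kept, 23 without doublets and 0 with ambient RNA subtracted. Unthinned, the arms differed by 8.84 percentage points for Itga1 and 10.4 for Znf683 in CD8 T cells, against -1.75 and 1.09 thinned.

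Directions that turned were all of differences short of the threshold. Leaving out each library, the log2 treatment differences in CD8 T cells ran from -0.025 to 1.58 for Znf683, -0.46 to 0.46 for Tgfbr2 and -0.39 to 0.32 for Itga1. In CD4 T cells they ran from -0.25 to 0.52 for Itgav, -0.22 to 0.33 for Cd69, -0.41 to 0.27 for Tgfbr2 and -0.86 to 0.19 for Smad7. In microglia they ran from -0.36 to 0.43 for Itgav, -0.74 to 0.63 for Tgfbr1 and -0.23 to 1.00 for Tgfbr2. In the Itgae split they ran from -0.087 to 0.082 for Tgfb1 and -0.13 to 0.11 for Smad7. With cells of several groups kept, the treatment difference became 0.029 for Tgfbr1 in CD4 T cells and 0.61 for Cd69 in microglia. With thinning the Itgae split gave 0.069 for Cd69 and -0.38 for Smad7, and with clones of at least 4 cells the clone split gave -0.18 for Znf683. The causes were not tested. Vehicle IgG 1 had 70 CD8 T cells, which limits the precision of that sum.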

Other observations

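The 12307 cells that met no group's rule also held the genes. They numbered 216, 8130, 2409 and 1552 in vehicle IgG 1, vehicle IgG 2, mavrilimumab 1 and mavrilimumab 2. In that order, Cd69 stood at 137, 261, 233 and 234 CPM in them, Tgfbr2 at 328, 91.1, 158 and 163 CPM, Itgae at 25.1, 106, 64.3 and 122 CPM, and Tgfbr1 at 494, 55.3, 90.6 and 84.5 CPM. Tgfb2 stood at 33.8, 14.2, 0.474 and 15.2 CPM. These cells are a mixture that was not divided further, and no test was made on them.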
